A study of Saccharomyces cerevisiae with 10 samples.

Results

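The transcripts described here are those of the yeast proteasome, its assembly factors and caps, and *RPN4*, the gene of the transcription factor that drives proteasome genes. The 42 members were listed by systematic name and not by a cut on any measured value, though with earlier results of these data known. They consist of 14 core particle subunits, 19 regulatory particle subunits, 8 assembly factors or caps and *RPN4* (YDL020C). They are 42 of the 6612 transcripts in the tables, and all 42 were among the 5986 transcripts with enough counts to be tested. RNA was sequenced from 5 cultures of BY, a haploid laboratory strain of *Saccharomyces cerevisiae* that the labels name BY4741, and from 5 cultures of BY *UBR1* -469A>T, which is BY with the base of the vineyard strain RM at position -469 of the *UBR1* promoter. *UBR1* encodes the ubiquitin ligase that recognises N-terminal degradation signals, and the comparison asks what this single promoter variant does to RNA levels. All cultures were grown untreated in synthetic complete medium and collected together at the same target density, and polyadenylated RNA was made into strand-specific paired-end libraries in 1 batch.

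The proteasome degrades proteins marked with ubiquitin. Its core particle is a barrel of stacked rings, with alpha subunits that gate the entrance and beta subunits inside, among which Pre3, Pup1 and Pre2 carry the caspase-like, trypsin-like and chymotrypsin-like active sites. The regulatory particle caps the barrel with a base, which holds the Rpt ATPases that unfold substrates, and a lid, whose Rpn11 removes ubiquitin. Rpn4 binds a short promoter element named PACE (proteasome-associated control element) and raises transcription of these genes, and the Rpn4 protein is itself quickly destroyed by the proteasome, so that in yeast a shortfall of proteasome activity is known to raise proteasome transcription.

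PACE, searched as the exact letters GGTGGCAAA on both strands, stood in the promoter window of 28 of the 42 members (66.7%) and in 72 of the 6020 windows of the reference (1.20%). Each window ran from 250 bases before to 50 after the start codon in the RefSeq sequence of assembly R64. It was present for 6 of 7 alpha subunits, 6 of 7 beta subunits, 8 of 10 base subunits and 7 of 9 lid subunits, against 1 of the 8 assembly factors and caps, which was *ECM29*. The windows of *PRE5*, *PUP1*, *RPN8*, *RPN10*, *RPN13*, *SEM1*, *UMP1*, *PBA1*, *NAS6*, *HSM3*, *NAS2*, *RPN14*, *BLM10* and *RPN4* itself did not hold these letters. The 28 sites began between 84 and 183 bases before the start codon, with a median of 122, and 20 read in the direction of the gene and 8 against it. The sites below are those of members to which the results return, with PACE in capitals and 10 reference bases on either side, written 5′ to 3′ on the strand on which PACE reads GGTGGCAAA.
PRE3 (chrX:435035-435063, plus strand): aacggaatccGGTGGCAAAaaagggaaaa
PRE2 (chrXVI:732184-732212, plus strand): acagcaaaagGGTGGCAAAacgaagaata
PUP3 (chrV:349511-349539, minus strand): tggcactgccGGTGGCAAAaaagtgcaaa
PRE8 (chrXIII:86841-86869, minus strand): agcttattaaGGTGGCAAAattgtccccg
SCL1 (chrVII:475337-475365, plus strand, against the gene): ctatccttacGGTGGCAAAttggtgtgtg
RPT3 (chrIV:1261495-1261523, plus strand): ctgaaagtaaGGTGGCAAAatagtaaatc
RPN1 (chrVIII:164838-164866, minus strand): tgtgttttacGGTGGCAAAaggcgagcac
RPN7 (chrXVI:742290-742318, minus strand, against the gene): atcctcaatgGGTGGCAAActtaacttat
ECM29 (chrVIII:39943-39971, plus strand): gccttttcttGGTGGCAAAaaaaaggtac
Around the shared 9 letters the flanking bases differed from gene to gene.

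Libraries held between 71103539 and 97644549 estimated counts, and the least counted member had 2265 in its lowest library. The edited gene *UBR1* checked the labels. Its level was 134 to 157 CPM (counts scaled to the size of the library, here after TMM normalization, which sets libraries to a common level) in BY and 162 to 183 in BY *UBR1* -469A>T, and no library of one strain reached the other. All 5 markers of MATa cells were expressed, at 28.6 TPM or more in every library (TPM, the unit deposited beside the counts, is scaled by transcript length and sums to the same total in each library), and the 3 MATalpha markers stood at 2.02 TPM or less. Transcripts of *HIS3*, *LEU2*, *MET17* and *URA3*, of which BY4741 is known to lack working copies, were counted in every library at 51.9 to 157 TPM. *HO* transcripts were counted at 6.88 to 16.5 TPM, although the strain table of the paper lists *HIS3* and *HO* as deleted. That table does not list *LEU2*, *MET17* or *URA3* as deleted, so their counts go against the name BY4741 and not against the table. What the *HIS3* and *HO* counts mean for the strain was not tested. The strain is called BY here as in the titles. Libraries were made from whole cultures, so a change in every cell and a change in the share of cells that express a gene cannot be told apart.

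In BY every particle subunit had a higher level per length than every other member except *UMP1*. The 33 particle subunits lay between 98.3 TPM (*RPN9*) and 657 TPM (*SEM1*), a 6.69-fold range, and *UMP1*, whose protein is enclosed in the maturing core particle and destroyed by it, lay among them at 229 ± 13.2 TPM (SD, n = 5). The other assembly factors, the caps and *RPN4* lay lower. *NAS6*, a chaperone of the base, had 59.8 ± 6.15 TPM, *NAS2* had 34.8 ± 3.38, *RPN4* 34.2 ± 7.01, *PBA1* 25.2 ± 2.66, *HSM3* 21.6 ± 1.57, *RPN14* 17.1 ± 1.30, *BLM10* 14.97 ± 1.98 and *ECM29* 12.4 ± 2.89 TPM (each SD, n = 5).

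**Figure D1:**
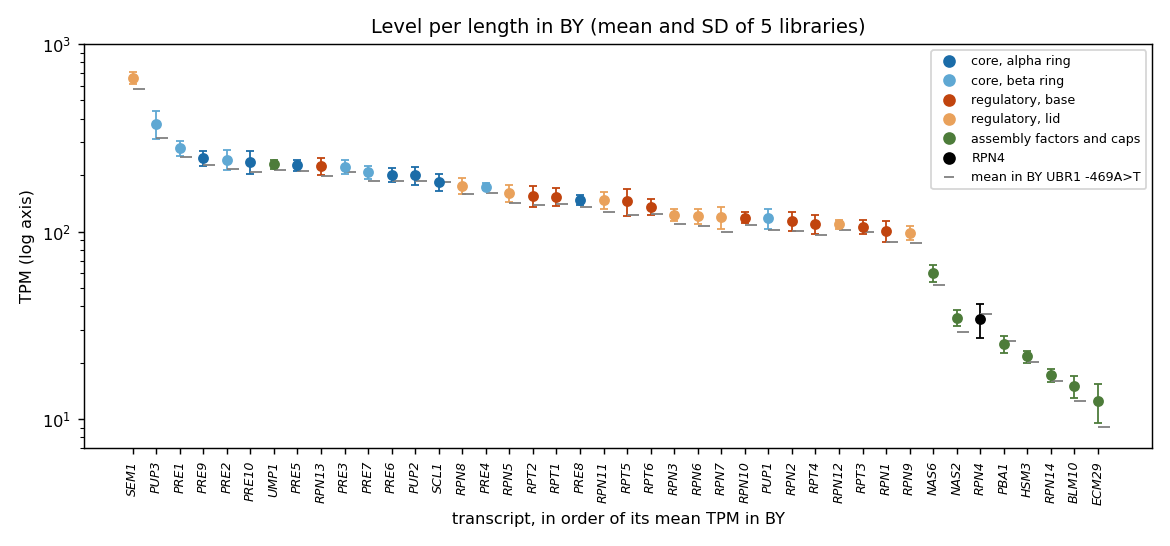
Mean TPM as deposited of each of the 42 transcripts in 5 BY libraries, with SD, on a log axis and in falling order, coloured by the place of the protein in the particle; grey dashes are the means of 5 BY *UBR1* -469A>T libraries. The particle subunits and *UMP1* form a slope that ends near 98.3 TPM, and 8 transcripts from *NAS6* at 59.8 TPM to *ECM29* at 12.4 TPM lie below it.

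*SEM1*, a small acidic subunit of the lid, and *PUP3*, a beta subunit with no active site, were the most abundant per length. *SEM1* had 733, 665, 649, 605 and 633 TPM in BY replicates 1 to 5, and 634, 583, 560, 552 and 544 TPM in the edited strain. The strains overlapped, since replicate 1 of the edited strain lay above BY replicates 4 and 5. Its coding sequence of 270 bases has a mean effective length of only 77.6 bases, so its TPM rests on a small divisor. *PUP3* stood at 376 ± 62.6 TPM (SD, n = 5), apart from *SEM1* above it and from *PRE1* at 279 ± 25.6 below it by more than their SDs. Of the 41 pairs of neighbours in the order, 36 overlapped within their SDs. The 5 that did not were *SEM1* and *PUP3*, *PUP3* and *PRE1*, *RPN9* and *NAS6*, *NAS6* and *NAS2*, and *HSM3* and *RPN14*. Median levels in BY were 200.4 TPM for the alpha ring, 222 for the beta ring, 127 for the base, 123 for the lid and 23.4 for the assembly factors and caps.

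The members varied together among replicates of one strain. In BY, 29 of the 33 subunits were highest in replicate 1 (87.9%, against 26.3% of all transcripts tested), and 26 were lowest in replicate 5 (78.8%, against 32%). In both strains at once, 27 of 33 were higher in replicate 1 than in replicate 5 (81.8%, against 36.9%). The CPM values of the 33 subunits summed to 11410, 10829, 10567, 9692.8 and 9190.3 in BY replicates 1 to 5 and to 10428, 10023, 9912.1, 9363 and 9278.6 in the edited replicates 1 to 5. The sum was thus highest in replicate 1 and lowest in replicate 5 of each strain, it ranged 1.24-fold within BY and 1.12-fold within BY *UBR1* -469A>T, and the strains overlapped. Core and regulatory particle varied alike, 1.23-fold and 1.25-fold within BY. The replicate number names a culture and has no order in the design. The first principal component of the differences within strains, over all transcripts tested, held 60.1% of that variance and had replicates 1 and 2 of both strains at one end and replicate 5 of both at the other. Extraction batch and optical density by culture were not used here, and their part in these differences was not tested.

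**Figure D2:**
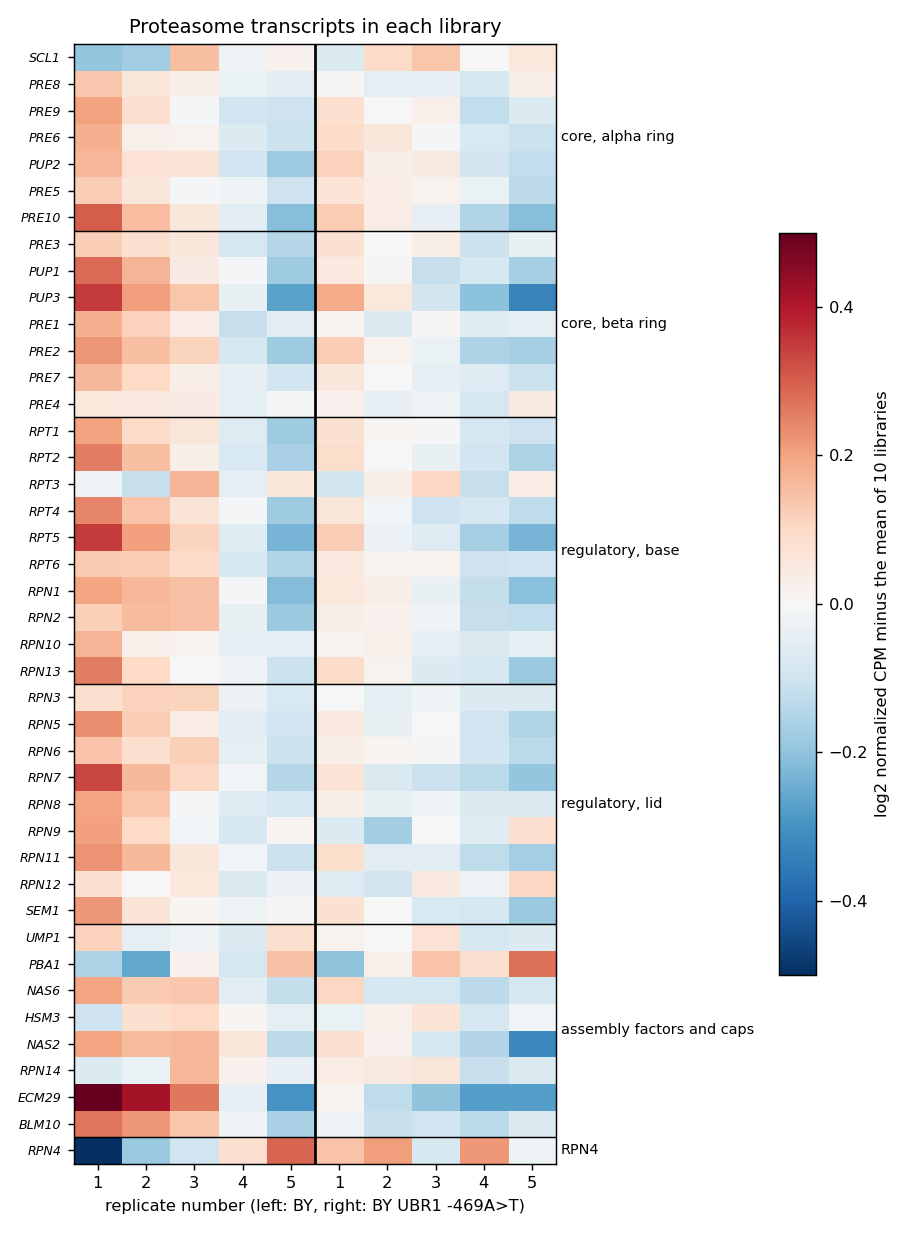
Log2 normalized CPM of each transcript in each library minus the mean of all 10 libraries, with genes in rows by class and libraries in columns (left, BY replicates 1 to 5; right, BY *UBR1* -469A>T replicates 1 to 5); colours saturate at the ends of the scale. Most subunits are red in replicates 1 and blue in replicate 5, *SCL1*, *RPT3*, *PBA1* and a few others are not, and *RPN4* is blue in BY replicate 1 and red in BY replicate 5.

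*SCL1* and *RPT3*, singled out after their values were seen, stood apart from the other subunits. Both hold the letters of PACE in their windows, and a link of their levels to PACE was not tested. *SCL1*, an alpha subunit, had 217, 221, 276, 244 and 253 CPM in BY replicates 1 to 5 and 237, 266, 274, 249 and 258 in the edited strain. *RPT3*, an ATPase of the base, had 270, 254, 309, 266 and 286 CPM in BY and 258, 281, 295, 254 and 282 in the edited strain. Both were highest in replicate 3 of each strain, and neither had its lowest BY value in replicate 5. Neither passed the test between strains (log2 fold change, BY over BY *UBR1* -469A>T, -0.055, SE 0.061, adjusted p = 0.60 for *SCL1* and 0.041, SE 0.063, adjusted p = 0.71 for *RPT3*, edgeR's quasi-likelihood test).

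Within-strain SDs of log2 CPM had a median of 0.113 over the members and 0.127 over all transcripts tested. They were largest for *ECM29* (0.252), *RPN4* (0.243) and *PUP3* (0.223). *PUP3* had 439, 399, 379, 336 and 286 CPM in BY replicates 1 to 5 and 391, 357, 323, 298 and 273 in the edited strain. The 2 strains overlapped over most of their range, and the range within either strain, 1.54-fold in BY and 1.43-fold in the edited strain, exceeded the difference between their means.

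None of the 14 core particle transcripts passed the test between strains, which 21.2% of all transcripts did. The test was edgeR's quasi-likelihood test over all 5986 transcripts, with 2 surrogate variables (covariates estimated from the counts themselves) and Benjamini-Hochberg adjustment, and a transcript was called at an adjusted p under 0.1. No core transcript reached even an unadjusted p under 0.05, and DESeq2 called none either. Log2 fold changes of BY over BY *UBR1* -469A>T ran from -0.071 for *PUP2* to 0.036 for *PRE8*, both alpha subunits, with a median of -0.017, and 5 were positive and 9 negative. With no surrogate variable 13 of the 14 were positive (median 0.044, against 0.0054 over all transcripts). In that fit edgeR called 0 of all transcripts, so the lack of a call says nothing of the core in particular. With libraries scaled by their totals, a scale on which the median of all transcripts was 0.063, the median of the core was 0.056. On that scale *PRE8*, *PUP1*, *PRE1*, *PRE7* and *PRE4*, 5 of the 14, were called higher in BY, as were 29.6% of all transcripts.

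Among the catalytic subunits, *PRE3* (YJL001W) had 253, 245, 241, 219 and 210 CPM in BY replicates 1 to 5 and 245, 232, 238, 215 and 226 in the edited strain. *PUP1* (YOR157C) had 190, 175, 160, 155 and 138 CPM in BY and 161, 157, 144, 147 and 139 in the edited strain. *PRE2* (YPR103W) had 430, 409, 399, 347 and 326 CPM in BY and 402, 374, 360, 332 and 329 in the edited strain. In each of the 3, replicate 1 was the highest BY library, BY replicate 5 was the lowest of all 10, and the strains overlapped. Log2 fold changes were -0.041 (SE 0.037, adjusted p = 0.50) for *PRE3*, 0.035 (SE 0.030, adjusted p = 0.47) for *PUP1* and -0.015 (SE 0.036, adjusted p = 0.82) for *PRE2* in edgeR's test. Exact two-sided permutation tests of mean log2 CPM, which take no covariate, gave p = 0.81, 0.21 and 0.39, where the smallest p that 5 against 5 libraries allow is 0.0079. *PUP1* was the only catalytic gene whose window lacked the exact letters searched as PACE. Its BY libraries ranked as those of *PRE3* and *PRE2* did, and a link of that order to PACE was not tested.

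In the regulatory particle, 1 of 19 transcripts was called, against 21.2% of all transcripts. With library totals 13 were called, among them all 9 of the lid, where 29.6% of all transcripts were called higher. *RPN7* (YPR108W, chrXVI:742454-743743), a scaffold subunit of the lid, had 368, 326, 313, 289 and 264 CPM in BY replicates 1 to 5 and 306, 277, 271, 266 and 255 in the edited strain. BY replicates 1 to 3 lay above every edited library and replicates 4 and 5 among them. The log2 fold change was 0.086 (SE 0.031, adjusted p = 0.087, edgeR), and the difference of the mean log2 CPM with no covariate was 0.18 (exact two-sided permutation p = 0.095). Without BY replicate 1 the log2 fold change was 0.033 (adjusted p = 0.53). *RPN9*, another lid scaffold, lay just outside the threshold at 0.11 (SE 0.040, adjusted p = 0.102 in edgeR and 0.060 in DESeq2, which called it). All 9 lid transcripts had positive log2 fold changes, here and with no surrogate variable. Here 2966 of the 5986 transcripts tested were positive, and the median of the lid was 0.044. *RPN11*, the deubiquitinase, stood at 0.048 and its partner *RPN8* at 0.022. *SEM1* had 139, 126, 121, 118 and 120 CPM in BY and 127, 120, 114, 113 and 105 in the edited strain, overlapping, with a log2 fold change of 0.053 (SE 0.040, adjusted p = 0.42).

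The base held no called transcript, against 21.2% of all transcripts, none at an unadjusted p under 0.05 and none called by DESeq2. The log2 fold changes of its 10 transcripts ran from -0.028 for *RPT1* to 0.041 for *RPT3*, both ATPases. *RPN1*, a scaffold that docks shuttle factors and a ubiquitin-processing enzyme, had the values 749, 734, 724, 649 and 562 CPM in BY and 678, 668, 638, 602 and 565 in the edited strain, and a log2 fold change of 0.010 (SE 0.038, adjusted p = 0.89, edgeR). The ubiquitin receptors *RPN10* and *RPN13* stood at 0.020 and 0.013. With no surrogate variable all 10 base transcripts were positive (median 0.085, against 0.0054 over all transcripts), and 0 of all transcripts were called. With library totals the median of the base was 0.082, against 0.063 over all transcripts. On that scale *RPT4*, *RPT5*, *RPN1* and *RPN10* were called higher in BY, as were 29.6% of all transcripts.

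Of the 8 assembly factors and caps, the 2 large proteins that bind the assembled particle were called, both higher in BY (25%, against 21.2% of all transcripts called in either direction). *ECM29* (YHL030W, chrVIII:40084-45690), whose product tethers core and regulatory particles and takes part in their quality control, had 204, 189, 171, 138 and 116 CPM in BY replicates 1 to 5. In the edited strain it had 143, 130, 123, 117 and 117 CPM. BY replicates 1 to 3 lay above every edited library, and BY replicate 5 was the lowest of all 10. The log2 fold change was 0.19 (SE 0.044, adjusted p = 0.019, edgeR), and the difference of mean log2 CPM with no covariate was 0.35 (exact two-sided permutation p = 0.095). Without BY replicate 1 the log2 fold change was 0.11 (adjusted p = 0.27).

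*BLM10* (YFL007W, chrVI:123479-129910), which encodes an alternative cap of the core particle, had 256, 247, 234, 209 and 190 CPM in BY and 210, 197, 199, 194 and 202 in the edited strain. BY replicates 1 to 3 again lay above every edited library and BY replicate 5 below them all. The log2 fold change was 0.11 (SE 0.040, adjusted p = 0.091, edgeR), against 0.17 with no covariate (exact two-sided permutation p = 0.10) and 0.064 without BY replicate 1 (adjusted p = 0.44). The other 6 assembly factors were not called. Their log2 fold changes were 0.069 for *NAS2*, 0.045 for *NAS6*, 0.0017 for *HSM3* and -0.0094 for *RPN14*, the 4 base chaperones, 0.022 for *UMP1*, and -0.011 for *PBA1*, a chaperone of the alpha ring.

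*RPN4* (chrIV:415113-416708, minus strand, coding length 1596 bases) had 82.4, 107, 113, 128 and 148 CPM in BY replicates 1 to 5. In the edited strain it had 134, 140, 114, 141 and 119 CPM. BY replicates 1, 2 and 3 lay below every edited library and BY replicate 5 above them all, so the range within BY, 1.80-fold, enclosed the edited range of 1.23-fold. The means were 116 ± 24.5 CPM in BY and 130 ± 12.1 CPM in BY *UBR1* -469A>T (SD, n = 5). The log2 fold change was -0.14 (SE 0.057) with an unadjusted p of 0.032 and an adjusted p of 0.13 in edgeR's test, and the exact two-sided permutation test gave p = 0.25. Leaving out BY replicate 1 alone moved the log2 fold change to -0.012 (adjusted p = 0.94, edgeR).

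**Figure D3:**
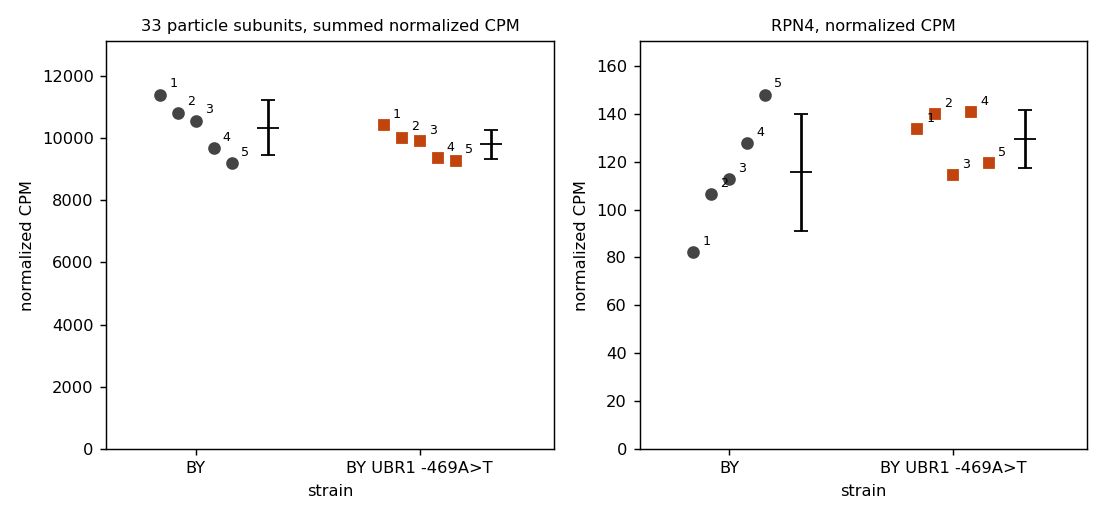
Summed normalized CPM of the 33 particle subunits (left) and normalized CPM of *RPN4* (right) in each library, labelled by replicate number, with mean and SD of 5 libraries per strain; both axes start at 0. In BY the subunit sum goes from 11410 in replicate 1 to 9190.3 in replicate 5 while *RPN4* goes from 82.4 to 148, and in the edited strain *RPN4* lies between 114 and 141 in no such order.

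Over the whole list, 3 of 42 members were called (7.14%), against 21.2% of all transcripts tested. The share of all transcripts itself fell to 3.96% without BY replicate 5, to 5.56% without edited replicate 2 and to 0.718% with 1 surrogate variable, settings with 1, 0 and 0 called members. The paper, with its own model, reported a far smaller share of transcripts as differing than 21.2%. All 3, *ECM29*, *BLM10* and *RPN7*, were higher in BY, a direction in which 9.34% of all transcripts were called. No member was called lower in BY, and at an unadjusted p under 0.05 there was 1 such member, *RPN4*. DESeq2 called 4 members, which were these 3 and *RPN9*, and none lower. No member had libraries that did not overlap between strains, against 2.92% of all transcripts. The median log2 fold change of the members was 0.018, and that of all transcripts was -0.0011, beside a median standard error of 0.036 for a member. The 33 subunits alone ran from -0.071 to 0.11. With 2 surrogate variables 27 of the 42 members were positive, against 2966 of the 5986 transcripts tested. With none 39 members were positive, with a median of 0.077, against 0.0054 over all transcripts. The members vary together among replicates, so these signs are not independent of each other.

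**Figure D4:**
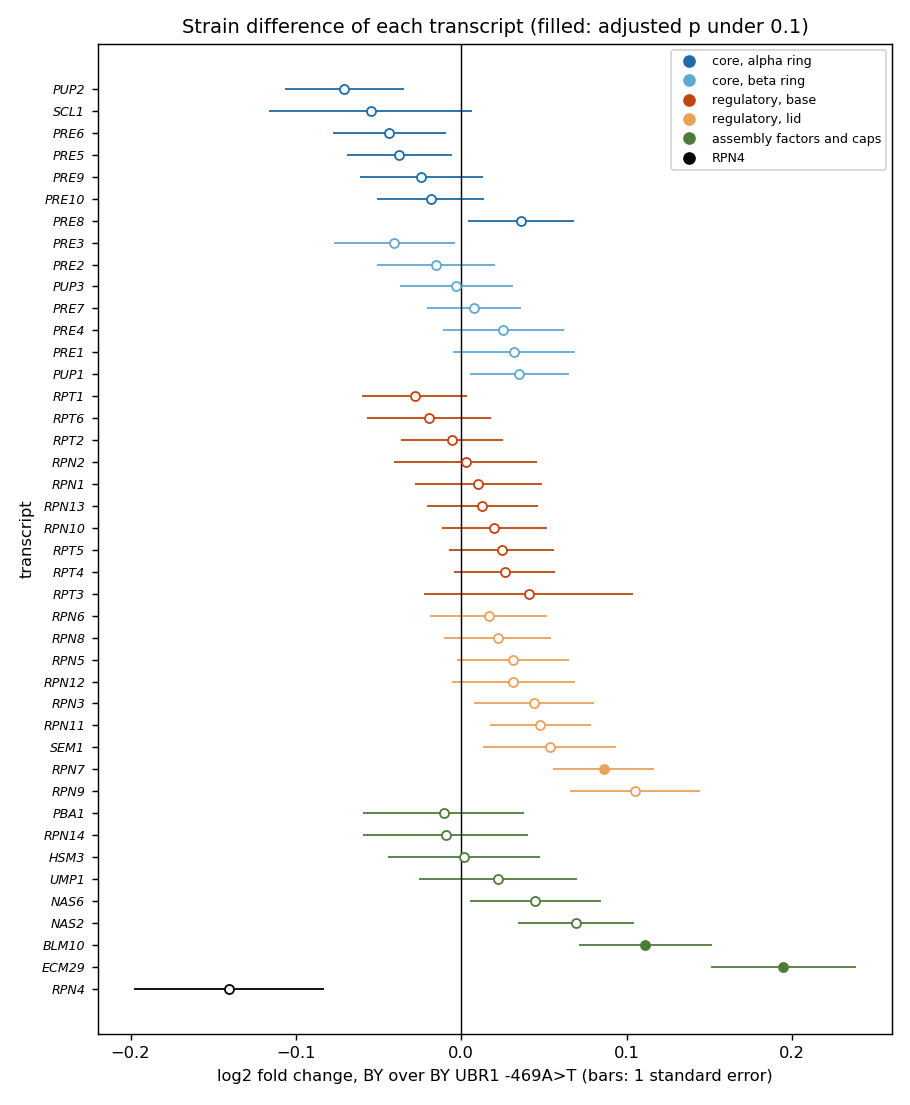
Log2 fold change of BY over BY *UBR1* -469A>T for each of the 42 transcripts by class, from edgeR with 2 surrogate variables, with bars of 1 standard error; filled points have an adjusted p under 0.1. Only *ECM29* (0.19), *BLM10* (0.11) and *RPN7* (0.086) are filled, and *RPN4* (-0.14) is the lowest point.

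The 3 calls depended on single libraries and on the treatment of the differences among replicates. Without BY replicate 1, none of them was called and *PUP2* (-0.11, adjusted p = 0.046) and *PRE6* (-0.080, adjusted p = 0.099), both alpha subunits, were called lower in BY. In that fit 19.9% of all transcripts were called. Without edited replicate 2, edgeR called no member, against 5.56% of all transcripts, and 1 member, *ECM29*, had an unadjusted p under 0.05. *ECM29* alone was called without BY replicate 2, 3 or 5 or edited replicate 1, 3 or 4, against 3.96% to 19.1% of all transcripts. It was called with *RPN9* without BY replicate 4, against 18.2%. Without edited replicate 5, 5 members were called, against 21.5% of all transcripts. They were *ECM29*, *BLM10*, *RPN7* and *RPN9* higher and *RPN4* lower (-0.17, adjusted p = 0.080). With no surrogate variable, 0 members and 0 of all transcripts were called, with 2 members, *ECM29* and *BLM10*, and 1400 of all transcripts at an unadjusted p under 0.05. With libraries scaled by their totals only, 22 members were called, all higher in BY, a direction in which 29.6% of all transcripts were then called (1771 higher against 394 lower), where the TMM scaling gave 559 higher and 712 lower. The median of all transcripts moved to 0.063 on this scale, with that of the members at 0.086.

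Most members were negatively correlated with *RPN4* over the 10 libraries of both strains. In BY replicates 1 to 5 the subunit sum fell at each step, from 11410 to 9190.3 CPM, while *RPN4* rose at each step, from 82.4 to 148 CPM. In the edited replicates 1 to 5 the sum also fell at each step, from 10428 to 9278.6 CPM. There *RPN4* had 134, 140, 114, 141 and 119 CPM, in no such order. A correlation within the edited strain alone was not tested. Over the 10 libraries, the median Pearson r of log2 CPM with *RPN4* was -0.72 for the 41 other members, against -0.0073 for the 5985 other transcripts, and it was negative for 38 of 41 (92.7%, against 50.4%). After Benjamini-Hochberg adjustment over all transcripts, 2 members passed at an adjusted p under 0.1 (4.88%), against 0.384% of all transcripts that passed with a negative r. They were *BLM10* (r = -0.865, Spearman's rho = -0.879, permutation p = 6e-04, adjusted p = 0.080) and *PRE8* (r = -0.898, rho = -0.879, permutation p = 0.001, adjusted p = 0.097). At an unadjusted p under 0.05 there were 31 of 41 (75.6%), against 22.0% of all transcripts. The members share the libraries and their scaling, and move together, so the 41 values are not independent of each other.

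**Figure D5:**
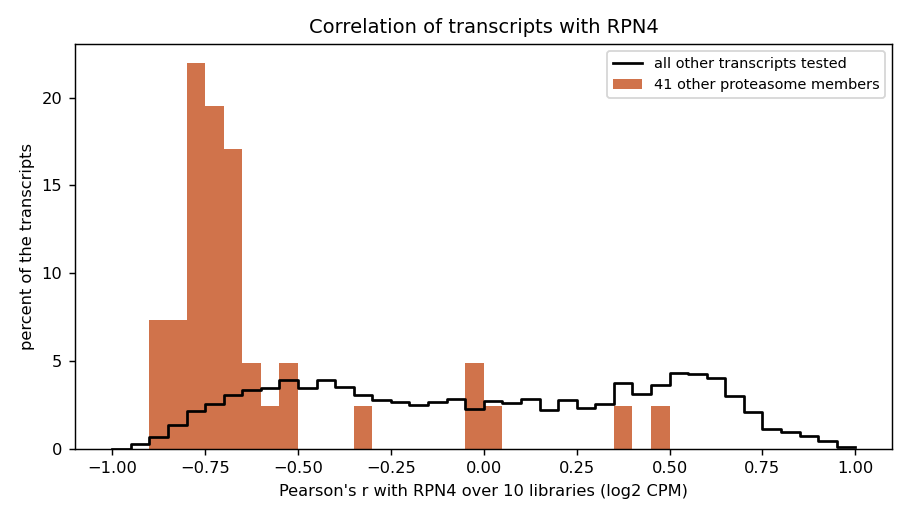
Share of transcripts, in percent, by Pearson's r of log2 CPM with *RPN4* over 10 libraries, for the 41 other members (filled) and for all 5985 other transcripts tested (line). The members are gathered around a median of -0.72, while all transcripts spread around -0.0073.

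The coefficients were smaller without the extreme libraries. Without BY replicates 1 and 5, in which *RPN4* is farthest from its median, the median r of the members was -0.39, with 38 of 41 still negative. With each library taken relative to its strain mean, the median r was -0.68, and *PRE8*, *PRE1* and *BLM10* passed (adjusted p = 0.054, 0.099 and 0.087, permutation test). Of the 5985 other transcripts, 256 passed in this way, against 67 without taking the strain mean out. With single libraries left out, 0 members passed without BY replicate 1, 2, 3 or 5 or edited replicate 2 or 4. The number was 12 without edited replicate 1, 4 without edited replicate 3 and 6 without edited replicate 5. How many of all transcripts passed in these settings was not counted. By Spearman's rho, no member passed after adjustment, and 0 of the 5985 other transcripts did, so this does not set the members apart. Their median rho was -0.69, with 26 of 41 at an unadjusted p under 0.05. The share of all transcripts at that unadjusted p was not counted. The 3 members with a positive r were *SCL1* (0.473), *PBA1* (0.374) and *RPN14* (0.0161), and *RPT3* (-0.050) and *HSM3* (-0.031) were near 0. In the edited strain *RPN4* was highest in replicates 2 and 4, while the sum of the subunits was highest in replicates 1 and 2.

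The members can also be divided by PACE, with no test of the difference. The median log2 fold change between strains was 0.014 for the 28 members with the motif and 0.021 for the 14 without, and the median r with *RPN4* was -0.73 and -0.57, *RPN4* itself left out. Another 44 genes had the letters in their window, 7 of them through the same site as a member beside them, and 43 were tested. Their median log2 fold change was 0.0069, and their median r with *RPN4* was -0.36. Among them 5 were called higher in BY, a direction in which 9.34% of all transcripts were called, YBR284W, DEF1, *YAP1*, GSF2 and RSE1, and 2 lower, PDI1 and WSS1, all but *YAP1* named after their values were seen. The Yap1 motif TTACTAA, searched on both strands and therefore also as TTAGTAA, was found for *PRE5*, *RPN7*, *RPN8* and *BLM10*, 4 of 42 members (9.52%), and in 7.49% of all windows. The *BLM10* match began at base 44 of the coding sequence and not before it. The Pdr1 and Pdr3 motif, searched as TCCGCGGA and TCCGTGGA, was found for *RPN11* alone (2.38%) and in 0.615% of all windows. This match too lay inside the coding sequence, from base 43. The *RPN4* window held none of the motifs searched. A match is a run of letters and not evidence of binding.

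Of 17 genes linked to the proteasome outside the list, 4 were called (23.5%, against 21.2% of all transcripts), all higher in BY. *SPG5*, a proteasome regulator of stationary phase, had a log2 fold change of 0.22 (adjusted p = 0.0078), *TMA17*, a base assembly chaperone induced by stress, 0.21 (adjusted p = 0.021), *NPL4*, a cofactor of the Cdc48 segregase, 0.17 (adjusted p = 0.0092), and *DDI1*, a shuttle factor, 0.13 (adjusted p = 0.025), all in edgeR's test. *TMA17* had 268, 303, 273, 220 and 161 CPM in BY replicates 1 to 5 and 266, 205, 156, 127 and 95.6 in the edited strain, so in both strains it was lowest in replicate 5, as most subunits were. Its strains overlapped, and the difference of mean log2 CPM with no covariate was 0.59 (exact two-sided permutation p = 0.071). *NPL4* had 77.7 to 85.0 CPM in BY and 67.1 to 73.8 in the edited strain, with no overlap.

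Of 8 genes that regulate *RPN4* or the Rpn4 protein, or belong to the same ubiquitin ligases, 4 were called (50%, against 21.2% of all transcripts), 2 higher and 2 lower in BY. They include *UBR1*, the edited gene, whose lower RNA level in BY the paper had reported. The 50% therefore counts a gene whose difference was known beforehand, in a list chosen with earlier results known. *YAP1*, a transcription factor of the oxidative stress response that is known to activate *RPN4*, was higher in BY by a log2 fold change of 0.16 (adjusted p = 0.013), at 205 to 235 CPM in BY and 176 to 201 in the edited strain, with no overlap. *PDR3*, a drug resistance factor that also acts on *RPN4*, was higher by 0.14 (adjusted p = 0.019). *UBR1* was at -0.21 (adjusted p = 0.019), and *RAD6*, the ubiquitin-conjugating enzyme that works with Ubr1 and Ubr2, at -0.11 (adjusted p = 0.034), both lower in BY in edgeR's test. *HSF1*, *PDR1*, *UBR2* and *MUB1* were not called, with log2 fold changes of 0.049 to 0.091 and adjusted p of 0.15 to 0.47.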

How the data were processed

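RNA from 5 BY and 5 BY *UBR1* -469A>T cultures was analysed, grouped by the genotype in the labels. The replicates are separate cultures. The authors trimmed and filtered reads with fastp and pseudoaligned them with Kallisto to the Ensembl version 96 transcripts. For each library the authors deposited estimated counts, which are not normalized and of which 5.49% were not whole, and TPM values, which are scaled within a library and keep no depth. The deposited tables also hold lengths. Kallisto's strand setting and assembly are not given in the sources used here.

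Estimated counts were rounded. A transcript was tested if no library had fewer than 10 counts for it or an effective length under 1 (5986 of 6612), which follows the filters of the study except its transcript integrity number. CPM used TMM scaling, with a prior count of 1 on the log2 scale. Strains were compared with edgeR 4.0.16 (R 4.3.3) and 2 surrogate variables from svaseq (sva 3.50.0), with Benjamini-Hochberg adjustment over all transcripts tested and calls at 0.1. The study itself used DESeq2, and its model also held the extraction batch and the density of each culture, which were not used here. At the same threshold the paper reported a far smaller share of transcripts as differing than the 21.2% called here, most of them lower in BY. The cause of that gap was not tested. DESeq2 1.42.0 and limma 3.58.1 on log2(TPM + 1) were alternatives. The SE of a log2 fold change was taken from edgeR's F statistic, as the change over its square root. The fits were also run on simulated data, and no outcome of that run is given here. Correlations with *RPN4* used 100000 permutations, adjusted over the 5985 other transcripts and not over the list of members.

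All 42 members had the length of their coding sequence in the R64 reference, 5917 of 6612 transcripts matched a reference gene, no member overlapped another annotated protein-coding gene, and coordinates and promoter windows come from R64. The motif searches covered PACE, its first 7 letters, and the motifs of Yap1 and of Pdr1 and Pdr3.

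The members, the linked and regulator lists and the tests were chosen with earlier results of these data known. Any member may be named. Values of every library are given for *RPN4*, *PRE3*, *PUP1* and *PRE2*, for called members whose libraries do not overlap between strains (none did), for the 2 members of highest and of lowest TPM, and for the 3 with the largest within-strain SD. Of the other lists, those called and *UBR1* are named, with 4 uncalled regulators. *RPN7*, *SCL1*, *RPT3*, *RPN1* and *TMA17* were given in full after their values were seen.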

Additional observations from a re-analysis of the deposited data

Results flagged for a closer look

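In a search for single libraries far from the other 4 of their strain (Dixon's test, critical value 0.71 for 5 libraries), 88 groups of values were examined, covering the 42 members, *UBR1* and the summed subunits in each strain. Chance gives about 1 in 20. Only 1 value passed. *NAS6*, the gene of a base chaperone, had 70.7 CPM in BY *UBR1* -469A>T replicate 1, against 60.1 to 61.95 CPM in the other 4 libraries of that strain, a gap of 0.825 of the range.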

How the results depend on the processing

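The number of called members, 3 with 2 surrogate variables, was 1 (*ECM29*) at an adjusted p under 0.05, 0 with 0 or 1 surrogate variables (2 and 1 members at an unadjusted p under 0.05), 6 with 3 (4 higher and 2 lower in BY, against 30.8% of all transcripts), 22 with library totals only (36.2%), 6 with at least 100 counts (5 higher and 1 lower, 30.5%) and 18 with limma on log2(TPM + 1) (36.5%). On library totals and on TPM the medians of all transcripts were 0.063 and 0.071. With 0 and 1 surrogate variables, 0 and 0.718% of all transcripts were called. The number of called members was 0 to 5 when a library was left out in turn, and the share of all transcripts was then 3.96% to 21.5%. It was 4 with DESeq2 (23.9% of all transcripts), with DESeq2 size factors (21.1%) and with upper-quartile scaling (20.6%), and 2 with no minimum count (14.2%). Same-numbered libraries of the strains had correlated deviations for 4 of 5 numbers (r = 0.296, 0.531, 0.482 and 0.684) but not for number 3 (-0.00595), so the numbers were not taken to pair the cultures. With a replicate block and no surrogate variables, 13 members were called (12 higher, 1 lower), against 39.7% of all transcripts. With a replicate block and 2 surrogate variables, 0 were called, 3 at an unadjusted p under 0.05, and 0.735% of all transcripts.

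The median log2 fold change of the members was between -0.011 and 0.097 under all 22 alternatives and never moved by more than the SD of 0.0943 between replicates. The *RPN4* log2 fold change was negative in all 22, from -0.20 to -0.012, with adjusted p between 0.061 and 0.94. It passed the threshold with 3 surrogate variables (-0.13), with at least 100 counts (-0.14) and in 1 of the fits that left out a library, whose range was -0.18 to -0.012.

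*PRE2*, *PRE3* and *PUP1* had small values of both signs, and those of *PRE2* and *PRE3* on library totals and TPM were below the medians of all transcripts on these scales. *PRE2* was at 0.089 with 0 surrogate variables, 0.085 with a replicate block, 0.056 with library totals, 0.00063 with at least 100 counts, 0.064 with limma on TPM, and -0.058 to 0.0024 with a library left out. *PRE3* was at 0.016, 0.014, 0.028 and 0.040 with 0 surrogate variables, the block, library totals and limma on TPM. *PUP1* was at -0.0094 with 1 surrogate variable and -0.0082 to 0.042 with a library left out, and *BLM10* at -0.070 with the block and 2 surrogate variables. None of these was called there. *PUP1* was called with the block and no surrogate variables, with library totals and with limma on TPM. *ECM29* was called in 17 of 22 alternatives and stood between 0.0018, with the block and 2 surrogate variables (adjusted p = 0.997), and 0.37, and *RPN7* was called in 10 and stood between 0.033 and 0.18.

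The number of members correlated with *RPN4*, 2, was 0 on log2(TPM + 1), 0 with Spearman's rho and 0 to 12 with a library left out. With Spearman's rho, 0 of the 5985 other transcripts passed as well. The first 7 letters of PACE gave 29 members in place of 28, but 2.87% of all windows. The causes of these changes were not tested. Each strain had 5 cultures, whose differences lay to 60.1% on 1 axis, and every member had at least 2265 counts in every library.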
